A study of Mus musculus with 44 samples.

Results

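This experiment asked what an inhibitor of the kinase MK2 changed in intestine that was not inflamed, in 10 of the 44 libraries of the series. The 10 libraries were taken by their labels: 5 from mice given the MK2 inhibitor ATI-450 and 5 from mice given vehicle. All 10 came from Tnf +/+ mice on C57BL/6, the uninflamed littermates bred beside heterozygous TNFΔARE mice, and all carried the label of batch 2. Mice were allocated at random to treatment at 16 weeks of age. Inhibitor was given at 3 mg/kg and vehicle was 0.5% methylcellulose with 0.025% Tween20 in PBS, a second dose followed after 16 h, and tissue was taken 90 min later per the sample labels, whereas the series text gives 24 h of treatment. The labels give the tissue as intestine and name neither the sex nor the time of day. Labels do not say whether mice shared a cage or litter, so the tests measure the spread between these libraries.

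MK2, encoded by Mapkapk2, is a serine/threonine kinase that the MAP kinase p38 switches on under stress and inflammatory signals. Active MK2 phosphorylates tristetraprolin, the product of Zfp36, which binds AU-rich elements in the 3′ untranslated region (UTR) of cytokine mRNAs and speeds their decay. Phosphorylated tristetraprolin is less able to do so, and mRNAs such as that of Tnf then last longer and are translated more. In the gut, an excess of TNF made this way is a known driver of inflammation of the ileum.

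Levels are given as CPM, counts per 1000000 library counts after TMM scaling, and fold changes are log2 values of inhibitor minus vehicle with their standard error (SE). Library totals ran from 10.5M to 12.6M counts with inhibitor and from 9.63M to 13.1M with vehicle (M, 1000000 counts). The summed CPM of 22 ileal enterocyte genes lay between 30170 and 60460 in the 10 libraries, with Fabp6, the ileal bile acid binding protein, at 3694 CPM with inhibitor and 4448 CPM with vehicle. Of 18 colonocyte genes 11 passed the count filter, and the list summed to between 1987 and 3573 CPM in the 10 libraries. Hoxb13, Hoxd13, Aqp8 and Scnn1b of that list had group means of at most 0.1228 CPM. Y-linked transcripts were present in 4 of 5 inhibitor and 3 of 5 vehicle libraries, so the groups were not balanced for them. Inhibitor replicate 5 and vehicle replicates 1 and 2 lacked them (at most 3.09 CPM). Vehicle replicates 4 and 2 lay at opposite ends of the first principal component (79.1 and -53.9), which held 35.9% of the variance.

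No gene passed the test. Of 13523 genes tested with edgeR's quasi-likelihood test, 0 (0% of those tested) had a Benjamini-Hochberg adjusted p under 0.05, and the smallest adjusted p was 1. At an unadjusted p under 0.05 there were 146 genes with lower fitted levels with inhibitor (1.08% of genes tested) and 27 with higher levels (0.2%). Together these were 173 genes (1.28%), below the share of 0.05 that a test gives when no gene differs. The 173 are thus no excess, and 0 calls do not show that the inhibitor changed nothing. DESeq2 called 3 genes (Hp, Ldb2 and Gm28035) and limma-voom with quality weights called 1 (Gm28035). The 5 inhibitor libraries all lay below the 5 vehicle libraries for 40 genes (0.296% of genes tested) and all above them for 4 genes (0.0296%). The median log2 fold change over all tested genes was -0.009, with quartiles of -0.136 and 0.082. The 95% confidence interval of the fold change lay within 2-fold in either direction for 10302 genes (76.2%) and within 4-fold for 12937 genes (95.7%).

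Several mRNAs under the control of tristetraprolin hold the nonamer TTATTTATT in the 3′ UTR, the DNA spelling of the core of an AU-rich element. Stretches of 30 bases of 3′ UTR are given for 6 genes of the pathway that hold it, because AU-rich elements are the sequences through which MK2 is known to act on mRNA. They were read from the transcript sequences of GENCODE for GRCm38, 5′ to 3′ on the transcript's strand, with nonamers in capitals, and adjoining nonamers share bases. The Tnf stretch lies at chr17:35199681-35199710 on the minus strand, that of Cxcl2 at chr5:90905325-90905354 on the plus strand, and that of Ptgs2 at chr1:150105783-150105812 on the plus strand. That of Fos lies at chr12:85477092-85477121 on the plus strand, that of Dusp1 at chr17:26506169-26506198 on the minus strand, and that of Zfp36 at chr7:28376961-28376990 on the minus strand.
Tnf: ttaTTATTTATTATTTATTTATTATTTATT
Cxcl2: cTTATTTATTtatctatgtatTTATTTATT
Ptgs2: aagtctactgaccatatTTATTTATTtatg
Fos: cgtttttattgtgttttcaatTTATTTATT
Dusp1: gaggctcatgggagctggtccTTATTTATT
Zfp36: ggccctttatttatgacgactTTATTTATT

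The whole 3′ UTR of Tnf holds 5 nonamers, that of Cxcl2 holds 4, that of Dusp1 holds 2 and those of Ptgs2, Fos and Zfp36 hold 1 each. Those of Cxcl1 and Csf2, whose stretches are not shown, hold 2 and 4. Other inflammatory mRNAs, among them Il6, Il1b, Ccl2 and Ier3, hold 0, so the nonamer covers only part of them. Among 12892 tested genes with an annotated 3′ UTR, whose lengths differ, 1114 (8.64%) held at least 1 nonamer on the transcript's strand. Of these 1114 genes, 0 were called, 2 were higher and 9 lower at an unadjusted p under 0.05, and the median log2 fold change was 0, against -0.009 over all tested genes. Of 245 tested genes with at least 2 nonamers, 0 were called and the median was -0.017. A match to the nonamer describes the sequence and does not show that tristetraprolin binds there.

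Among the kinases themselves, the target of the drug was measured with narrow error. Mapkapk2 stood at 91.6, 90.5, 99.5, 86.7 and 94.4 CPM in inhibitor replicates 1 to 5 and at 96.8, 105, 85.05, 75.5 and 95.8 CPM in vehicle replicates 1 to 5. The groups overlapped, and the log2 fold change was 0.01 (SE 0.12, 95% interval -0.25 to 0.28). The drug acts on the protein, so the level of its mRNA does not check the dosing. Mapkapk3, which encodes the close relative MK3, had a log2 fold change of 0.19 (SE 0.19, interval -0.23 to 0.62), with 48.5 CPM against 42.5 CPM. Mapk14, which encodes p38 alpha, had a log2 fold change of 0.12 (SE 0.17, interval -0.25 to 0.49). Over the 23 tested members of the p38 and MK2 list, 0 were called or reached an unadjusted p under 0.05, 16 had positive and 7 negative fold changes, and the median was 0.06. For 21 of the 23 the interval lay within 2-fold in either direction.

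Zfp36 and Hspb1, which encode proteins that MK2 phosphorylates, had the smallest p of that list. Zfp36 stood at 18.2, 19.4, 27.0, 19.0 and 23.9 CPM with inhibitor and at 18.2, 20.7, 17.7, 14.9 and 13.3 CPM with vehicle. Inhibitor replicates 3 and 5 exceeded every vehicle library and the other 3 fell within the vehicle range. The log2 fold change was 0.34 (SE 0.17, interval -0.03 to 0.71), and leaving out each library in turn moved it between 0.25 and 0.42. Hspb1, which encodes the small heat shock protein HSP27, ranged from 7.16 to 14.1 CPM with inhibitor and from 7.53 to 31.8 CPM with vehicle, with vehicle replicate 2 the highest. Its log2 fold change was -0.62 (SE 0.34, interval -1.37 to 0.13), and -0.31 without vehicle replicate 2.

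**Figure D1:**
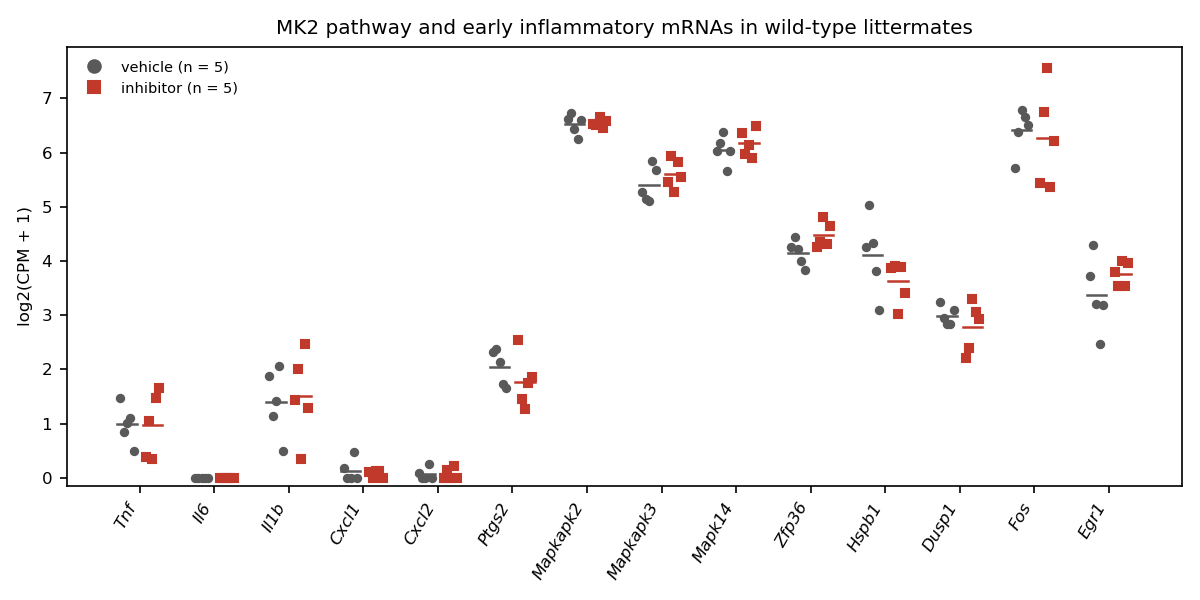
Levels of the 14 genes of the MK2 pathway and early inflammation that were followed throughout, as log2(CPM + 1), in 5 vehicle libraries (grey circles) and 5 inhibitor libraries (red squares) of wild-type littermates; bars are group means. Both groups overlap for each gene with counts, and Il6 is at 0 in all 10 libraries.

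The cytokine mRNAs that the pathway is known for were near the floor of detection in both groups. Tnf stood at 0.309, 1.07, 0.265, 1.76 and 2.14 CPM with inhibitor and at 1.77, 0.802, 1.02, 1.16 and 0.407 CPM with vehicle. That is 3 to 27 counts per library. Both the lowest and the highest library had inhibitor, and the log2 fold change was 0.09 (SE 0.59) with an interval of -1.21 to 1.39, which holds 2-fold changes in either direction. Il1b, another inflammatory cytokine, ranged from 0.265 to 4.52 CPM with inhibitor and from 0.407 to 3.18 CPM with vehicle, with a log2 fold change of 0.25 (SE 0.65). Il6 had 0 counts in each of the 10 libraries, which allows up to 0.204 to 0.305 CPM per library (3 counts of the scaled total, counting error only). The neutrophil chemokines Cxcl1 and Cxcl2 had at most 4 and 2 counts in any library and were below the count filter.

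Of 30 cytokine and early inflammatory mRNAs, 11 passed the count filter, and these are the ones with more counts. None of the 11 was called or reached an unadjusted p under 0.05, and their median log2 fold change was 0.019. Ptgs2, which encodes the inducible prostaglandin synthase COX-2, ranged from 1.41 to 4.79 CPM with inhibitor and from 2.14 to 4.21 CPM with vehicle (log2 fold change -0.31, SE 0.36). Ier3, an early response gene, stood at 3.92 CPM with inhibitor and 5.57 CPM with vehicle (-0.51, SE 0.28). Csf1, the macrophage growth factor, stood at 6.56 and 8.74 CPM (-0.42, SE 0.37). Vegfa, Nfkbiz and Cxcl10 had log2 fold changes of -0.03 (SE 0.21), 0.04 (SE 0.41) and 0.02 (SE 0.43).

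Signal-induced genes also overlapped between the groups. Fos ranged from 40.1 to 189 CPM with inhibitor and from 51.4 to 110 CPM with vehicle (log2 fold change 0.06, SE 0.40), and inhibitor replicate 3 was the highest. Egr1 ranged from 10.6 to 14.9 CPM with inhibitor, within the vehicle range of 4.53 to 18.5 CPM (0.30, SE 0.32). Dusp1, a phosphatase that switches off p38, ranged from 3.63 to 8.84 CPM and from 6.17 to 8.44 CPM (-0.19, SE 0.26). Of 24 tested immediate early genes and 12 tested dual specificity phosphatases, 0 were called and 0 reached an unadjusted p under 0.05, with medians of -0.026 and -0.038. Of 24 tested genes for AU-rich element binding and mRNA decay, 0 reached an unadjusted p under 0.05, and their median was 0.025.

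The NF-kappaB list, which holds the subunits of that transcription factor and the genes that feed back on it, had 14 of 18 tested members with positive fold changes (median 0.106), 0 called and 2 at an unadjusted p under 0.05. Bcl3, a nuclear partner of the p50 and p52 subunits, stood at 38.7, 57.1, 43.4, 44.9 and 64.3 CPM with inhibitor and at 41.2, 29.4, 39.2, 42.0 and 27.6 CPM with vehicle (log2 fold change 0.47, SE 0.18). Birc3, an inhibitor of cell death, stood at 50.3 and 40.8 CPM (0.30, SE 0.12). The count at an unadjusted p under 0.05 was 0 without vehicle replicate 2, without vehicle replicate 5 or without inhibitor replicate 2.

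Of the 45 gene lists, that of adipose tissue had the median farthest from 0. Of 11 tested members of that list, 0 were called, 10 had an unadjusted p under 0.05 with lower levels in inhibitor libraries, and 7 did not overlap between the groups, beside 40 such genes among all 13523. The median log2 fold change was -2.95. Summed over the list, inhibitor replicates 1 to 5 held 48.1, 59.6, 109, 52.0 and 161 CPM and vehicle replicates 1 to 5 held 238, 2056, 298, 284 and 230 CPM. Each vehicle library was above each inhibitor library, and vehicle replicate 2 stood far above the other 4.

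Adipoq (chr16:23146536-23158028, GRCm38), which encodes the fat cell hormone adiponectin, stood at 0.155, 0.0971, 2.65, 0.335 and 8.24 CPM with inhibitor and at 11.5, 111, 16.0, 21.01 and 13.9 CPM with vehicle. Its log2 fold change was -3.89 (SE 1.09, 95% interval -6.28 to -1.50), and lay between -5.41 (without inhibitor replicate 5) and -2.74 (without vehicle replicate 2) when each library was left out. Fabp4 (chr3:10204088-10208576), a fatty acid carrier of fat cells that endothelium and macrophages also express, stood at 10.6, 8.83, 16.2, 12.9 and 34.3 CPM with inhibitor and at 49.8, 310.4, 52.5, 60.6 and 34.5 CPM with vehicle. Inhibitor replicate 5 and vehicle replicate 5 differed little for it. Its log2 fold change was -2.61 (SE 0.65), and -1.57 without vehicle replicate 2.

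Cfd, which encodes the complement protease adipsin, was listed at 0 in inhibitor replicates 1 and 2 and stood at 9.37, 1.004 and 14.98 CPM in the other 3, against 36.0, 517, 44.8, 38.6 and 26.3 CPM with vehicle. Car3, a carbonic anhydrase abundant in fat, ranged from 0.0971 to 34.8 CPM with inhibitor and from 53.4 to 588 CPM with vehicle. Lpl, the lipase that takes fatty acids from blood lipoproteins, ranged from 3.495 to 16.9 CPM with inhibitor and from 20.96 to 218 CPM with vehicle. Retn, which encodes resistin, stood at 0.0773, 0, 0.884, 0.167 and 2.62 CPM with inhibitor and at 5.31, 74.2, 4.71, 3.76 and 4.99 CPM with vehicle. Plin4, a lipid droplet coat protein, ranged from 3.69 to 8.64 CPM and from 9.16 to 72.9 CPM. For Lpl the log2 fold change was -2.95 (SE 0.78), and -1.55 without vehicle replicate 2. These genes kept the 2 groups apart in all 10 libraries.

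For Lep, Plin1 and Cidec the groups overlapped, with log2 fold changes of -2.57 (SE 0.94), -4.18 (SE 1.13) and -1.17 (SE 0.39). Pparg, the fat cell regulator that gut epithelium also expresses, was similar in both groups at 6.64 and 6.16 CPM (log2 fold change 0.11, SE 0.30). Ucp1, the defining gene of brown fat, had 0 counts in all 10 libraries. Without vehicle replicate 2 the median of the list was -1.78 with 9 of 11 at an unadjusted p under 0.05, and without vehicle replicates 2 and 4 it was -1.58 with 7 of 11. In the libraries with Y-linked transcripts alone it was -3.47 with 10 of 11. That subset leaves out vehicle replicates 1 and 2 and also inhibitor replicate 5, which had the highest adipose sum of its group. In whole tissue, fewer cells of a type and less RNA per cell cannot be told apart. Vehicle replicate 2 also held the highest summed level of smooth muscle genes (5613 CPM) and of fibroblast genes (1295 CPM), and their part in the adipose values was not tested.

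**Figure D2:**
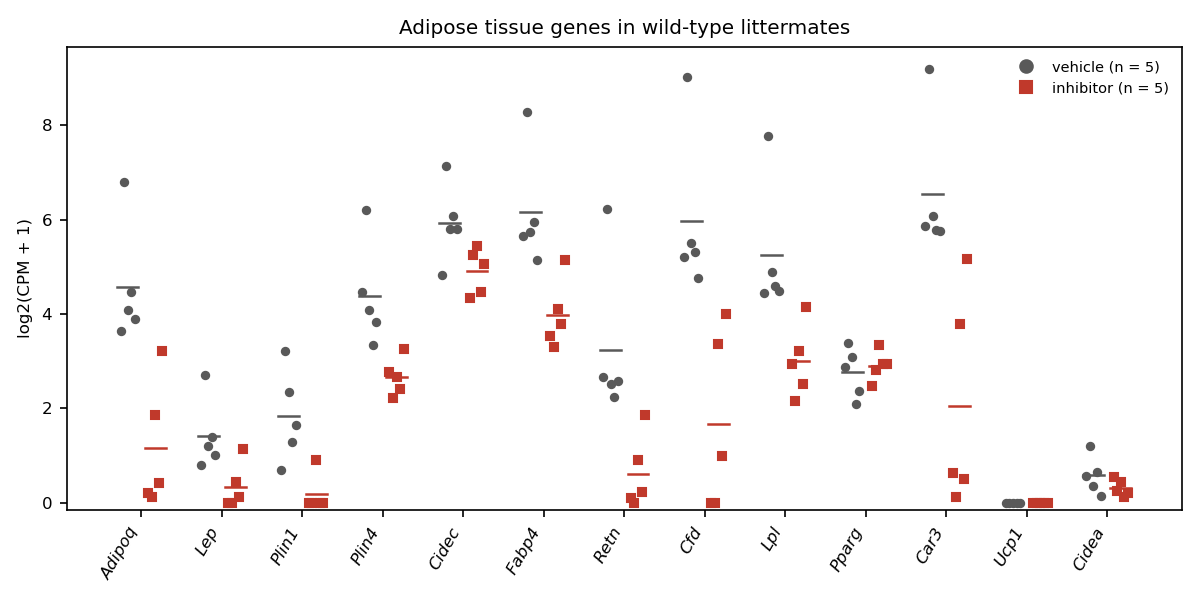
Levels of the 13 genes of the adipose tissue list as log2(CPM + 1) in 5 vehicle (grey circles) and 5 inhibitor (red squares) libraries; bars are group means. The groups do not overlap for 7 of the 11 tested genes and overlap for Lep, Plin1, Cidec and Pparg, and vehicle replicate 2 is the highest library for the 7.

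Several genes outside that list, named for their small p, were also lower with inhibitor and did not pass the test. Hp, which encodes the haemoglobin scavenger haptoglobin, stood at 0, 0.485, 1.24, 0.669 and 1.59 CPM with inhibitor and at 2.45, 29.2, 8.50, 8.19 and 6.41 CPM with vehicle (log2 fold change -3.76, SE 0.82, and -2.98 without vehicle replicate 2). DESeq2 called Hp with an adjusted p of 0.00611, while edgeR's adjusted p was 1. In edgeR's fit of all TNF groups with batch, the adjusted p of this effect of Hp was 0.101. Thrsp, a regulator of lipid synthesis, ranged from 0.583 to 2.77 CPM with inhibitor and from 4.76 to 122 CPM with vehicle (-4.27, SE 1.01, and -2.29 without vehicle replicate 2). Adrb3, the beta-3 adrenergic receptor of fat cells, ranged from 0.583 to 1.59 CPM and from 1.83 to 10.1 CPM. Cd36, a fatty acid transporter, ranged from 3.87 to 11.6 CPM and from 11 to 41.1 CPM. Its log2 fold change was -1.63 (SE 0.41), and -1.21 without vehicle replicate 2. With the adipose level as a covariate, log2 fold changes were -1.524 for Hp, -0.203 for Thrsp, -0.477 for Adrb3 and -0.284 for Cd36. The adipose level by itself separates the groups, so that fit cannot tell it apart from the inhibitor.

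Trf, Cyp2e1 and Rbp4 kept the groups apart as well, and Trf and Rbp4 are named for this after their values were seen. Trf, the iron carrier transferrin, ranged from 12.5 to 25.3 CPM with inhibitor and from 33.6 to 334 CPM with vehicle. Cyp2e1, an ethanol-oxidising cytochrome P450, was listed at 0 in inhibitor replicates 1, 2 and 4, at 6.45 and 4.76 CPM in the other inhibitor libraries, and at 23.6, 128, 26.04, 20.2 and 21.6 CPM with vehicle. Rbp4, the retinol carrier, ranged from 0.874 to 2.46 CPM and from 2.65 to 12.4 CPM. With the adipose level as a covariate, log2 fold changes were 0.281 for Trf, -1.542 for Cyp2e1 and 0.369 for Rbp4, under the same limit.

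Markers of the muscle and nerve layers were lower by sign, and this rested on few libraries. All 14 tested smooth muscle genes had negative fold changes (median -0.58), 0 were called and 0 reached an unadjusted p under 0.05. Their summed level was 2878, 5613, 2045, 1482 and 1576 CPM in vehicle replicates 1 to 5 and ranged from 1614 to 2365 CPM with inhibitor. Without vehicle replicate 2 the median was -0.13, and without vehicle replicate 4 it was -0.761 with 5 of 14 at an unadjusted p under 0.05. In the libraries with Y-linked transcripts alone, which also leave out vehicle replicates 1 and 2, it was 0.165, with 13 of 14 positive. Myh11, the smooth muscle myosin heavy chain, ranged from 114 to 314 CPM with inhibitor and from 90.6 to 906 CPM with vehicle.

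All 13 tested genes of enteric neurons and glia had negative fold changes (median -0.71), of which 0 were called. Tubb3, a neuronal tubulin, and Stmn2, a neuronal growth-cone protein, had unadjusted p under 0.05, with log2 fold changes of -0.98 (SE 0.45) and -0.70 (SE 0.32). Their libraries overlapped. Without vehicle replicate 2 the list median was -0.203 and 0 members had an unadjusted p under 0.05. In the libraries with Y-linked transcripts alone, which also leave out vehicle replicate 2, the median was 0.051.

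Genes of red blood cells, which enter tissue RNA with the blood, were lower by sign for 4 of 5 tested members, with 3 at an unadjusted p under 0.05 and 0 called (median -0.75). Hba-a2, an alpha globin, stood at 13.9, 10.97, 8.48, 10.7 and 10.3 CPM with inhibitor and at 14.4, 24.1, 20.8, 15.03 and 17.3 CPM with vehicle, so the groups did not overlap (log2 fold change -0.75, SE 0.19). Hbb-bs, a beta globin, ranged from 13.3 to 30.6 CPM and from 25.8 to 46.0 CPM (-0.85, SE 0.25). Alpha globin genes are near-identical copies, so the split of reads between Hba-a1 and Hba-a2 is uncertain. The list median without any single library lay between -0.825 and -0.632.

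**Figure D3:**
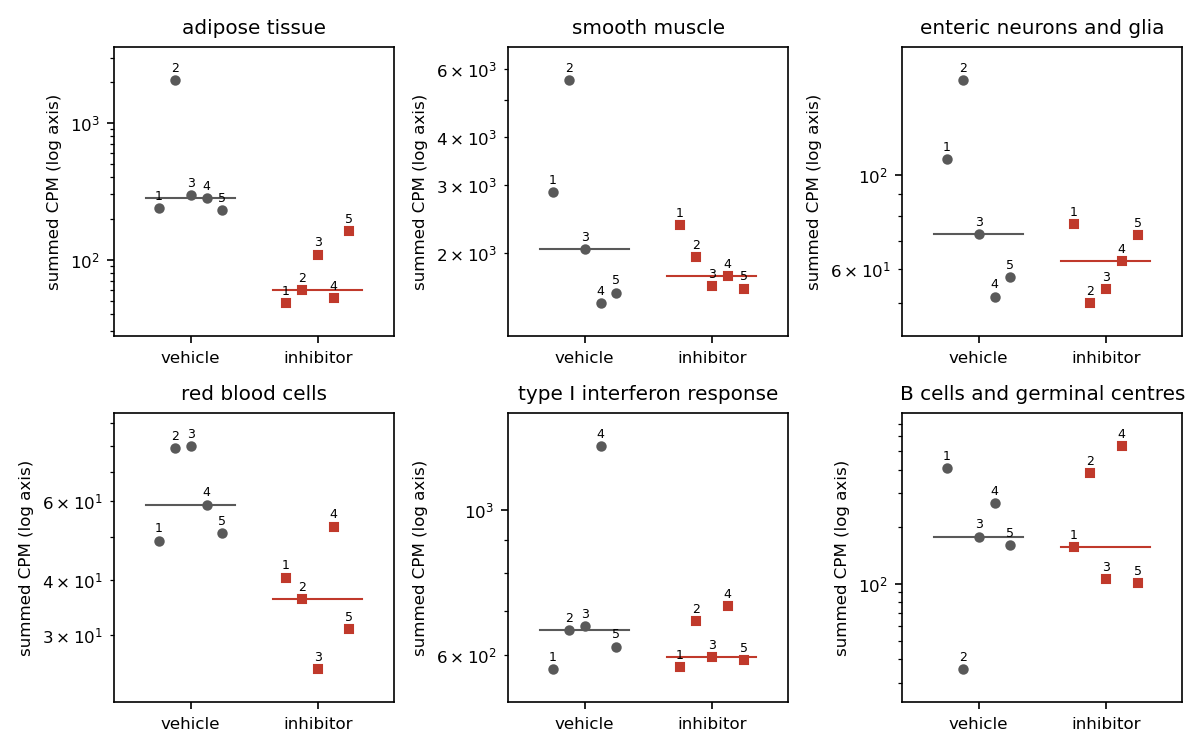
Summed CPM of 6 gene lists in each library, on log axes that differ between panels, with vehicle in grey, inhibitor in red, replicate numbers beside the points and group medians as bars. Adipose levels separate the groups, vehicle replicate 2 is highest for adipose, smooth muscle and enteric neuron genes, and vehicle replicate 4 is highest for interferon genes.

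Genes of the type I interferon response were lower by sign for 22 of 24 tested members (median -0.39), with 0 called and 2 at an unadjusted p under 0.05. Ifi27l2a, an interferon-induced mitochondrial protein, stood at 4.72, 11.9, 4.42, 15.1 and 4.99 CPM with inhibitor and at 14.2, 33.8, 17.4, 25.2 and 11.5 CPM with vehicle (log2 fold change -1.31, SE 0.42). Oas2, a sensor of double-stranded RNA, stood at 0.922 and 1.54 CPM (-0.72, SE 0.32). Usp18, which restrains interferon signalling, was at 37.97 CPM in vehicle replicate 4 and between 2.06 and 11.3 CPM in the other 9 libraries. Without vehicle replicate 4 the list median was -0.053, with 13 of 24 negative. Of 27 tested genes of the interferon gamma response 22 were lower by sign (median -0.203), and without vehicle replicate 4 the median was 0.012.

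Lymphocyte lists varied among libraries of the same group. The summed level of B cell genes ranged from 100.3 to 530.4 CPM with inhibitor and from 35.5 to 407 CPM with vehicle, 17 of 19 members were higher by sign (median 0.27), and 0 were called. Leaving out each library in turn moved this median between -0.186 and 0.714. All 11 tested genes of cytotoxic lymphocytes were lower by sign (median -0.46), and without vehicle replicate 4 the median was 0.025. For T cells 18 of 21 were lower by sign (median -0.159) and for monocytes and macrophages 14 of 18 (median -0.156), with 0 called in both. Defining genes of neutrophils were scarce: 3 of 21 passed the count filter, and 3 had 0 counts in all 10 libraries.

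Epithelial lists had medians between -0.08 and 0.083, and the share of members with a 95% interval within 2-fold, 76.2% over all tested genes, differed between them. All 14 Paneth cell genes had such intervals (median 0.01), as had 12 of 13 goblet cell genes (median -0.034) and 12 of 14 stem cell genes (median 0.083). It was 15 of 22 for ileal enterocytes (median -0.018), 11 of 15 for enteroendocrine cells (median 0.038), 8 of 11 for colonocytes (median -0.08), 7 of 12 for tuft cells (median 0.068) and 2 of 9 for the proximal small intestine (median 0.04). For 2 pathway lists it was 24 of 25 for the cell cycle (median -0.038) and 22 of 22 for cholesterol synthesis (median -0.02). None of these lists held a gene at an unadjusted p under 0.05. Smoc2, a stem cell gene, ranged from 20.5 to 56.7 CPM with inhibitor and from 52.0 to 67.8 CPM with vehicle (log2 fold change -0.49, SE 0.23). Clca1, a goblet cell protein of the mucus, ranged from 1531 to 3041 CPM and from 1514 to 2032 CPM (0.21, SE 0.20).

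Drug-handling genes held 4 of the 27 genes with higher levels at an unadjusted p under 0.05, out of 31 tested members (median 0.088), and 0 were called. Cyp2c55, an intestinal cytochrome P450, stood at 398, 206, 447, 72.9 and 279.8 CPM with inhibitor and at 87.7, 176, 107, 172 and 115 CPM with vehicle (log2 fold change 1.09, SE 0.41). Inhibitor replicate 4 was below every vehicle library and the other 4 were above every one. Cyp2c66, a relative, ranged from 2.93 to 29.6 CPM and from 0.408 to 6.21 CPM (1.81, SE 0.73). Gstm3, a glutathione transferase, stood at 46.9 and 23.8 CPM (0.98, SE 0.41), and Cyp3a25 at 265.7 and 180.0 CPM (0.56, SE 0.25). Cyp2c, Gstm and Cyp3a genes have near-identical relatives, so reads may have been split among them. Without inhibitor replicate 3 the list median was -0.038 and 0 members had an unadjusted p under 0.05, and in the libraries with Y-linked transcripts alone the median was -0.02. Of 24 tested genes of fatty acid oxidation and PPAR targets 20 were higher by sign (median 0.122), with 0 called, and without inhibitor replicate 3 the median was -0.003.

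Clock genes, which cycle with the time of day, went in both directions. Arntl, which encodes the clock activator BMAL1, stood at 23.0, 13.01, 11.7, 18.7 and 26.0 CPM with inhibitor and at 9.26, 6.11, 6.46, 12.1 and 13.2 CPM with vehicle (log2 fold change 0.97, SE 0.29). Its partners Clock and Npas2 had values of 0.39 (SE 0.19) and 0.45 (SE 0.31). Ciart, a repressor of that activator, ranged from 0.634 to 2.43 CPM with inhibitor and from 1.84 to 5.08 CPM with vehicle (-1.07, SE 0.40). Per1, Per2 and Per3 had values of -0.33 (SE 0.28), -0.54 (SE 0.43) and -0.59 (SE 0.46). Of 24 tested clock genes, 0 were called, 1 in each direction had an unadjusted p under 0.05, and the median was -0.162. Without inhibitor replicate 3 the count with lower levels was 5. The labels do not give the hour at which each mouse was killed, and its part in these values was not tested.

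**Figure D4:**
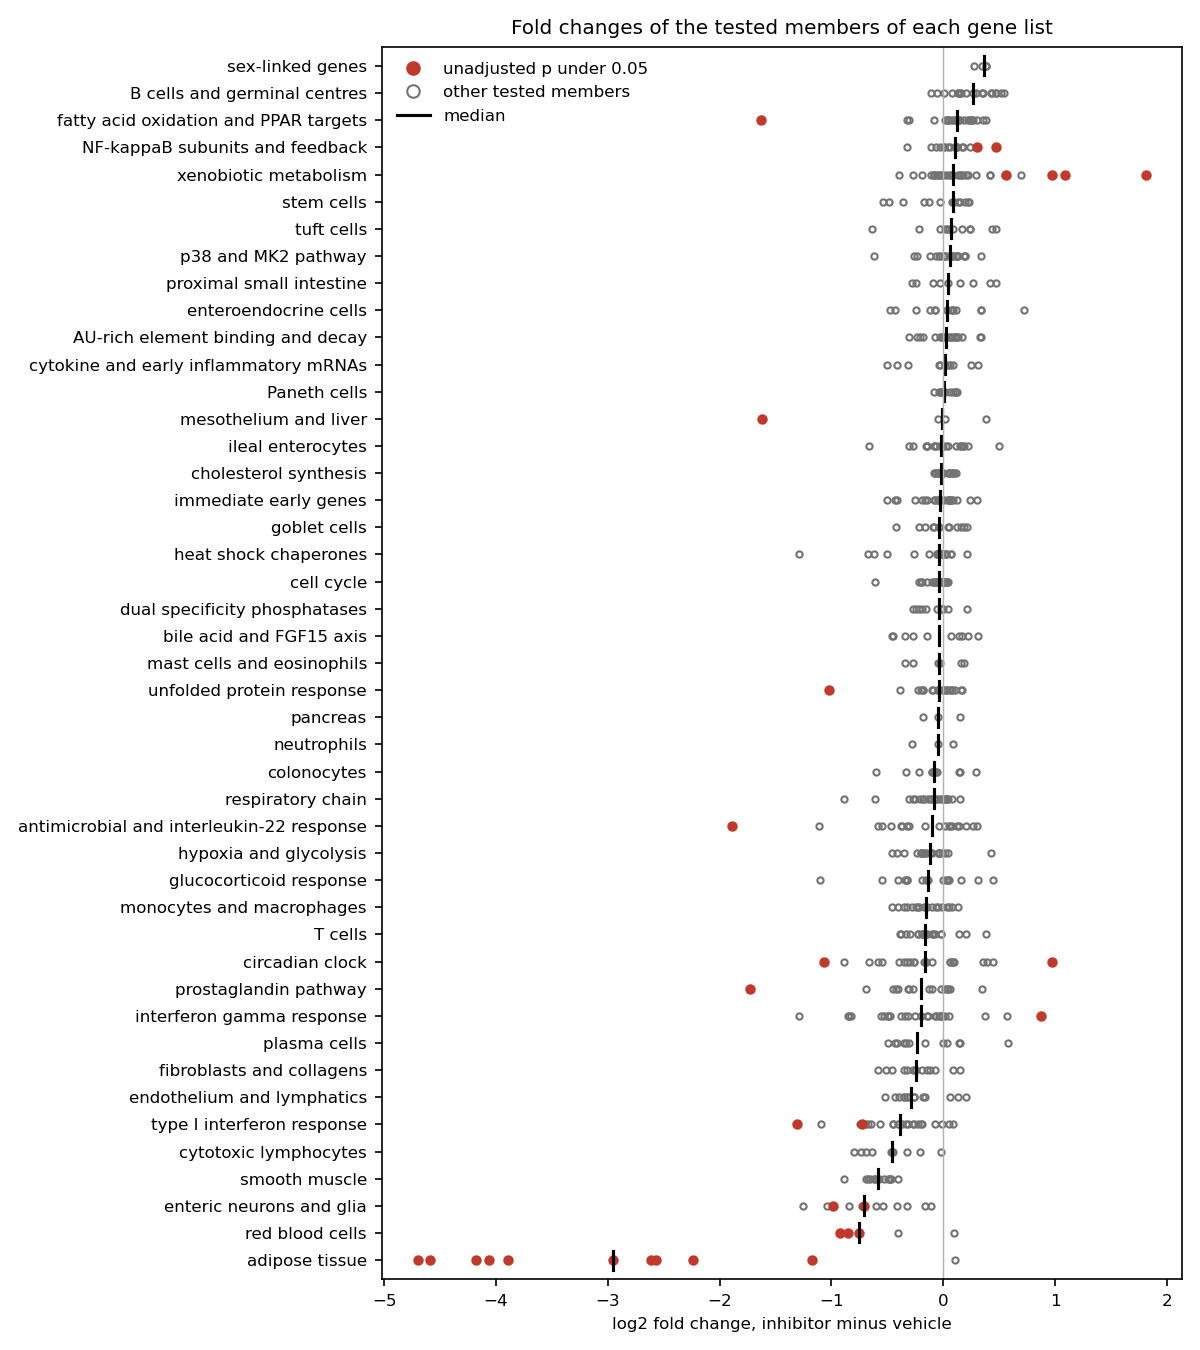
Log2 fold change of each tested member of 45 gene lists, inhibitor minus vehicle, ordered by list median (black bar); red points had an unadjusted p under 0.05 and open points did not, and no point was called after adjustment. The adipose list is set apart at a median of -2.95, and most other lists centre near 0.

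Pym1 and Gm28035 had small p without belonging to these lists. Pym1, a factor that takes exon junction complexes off mRNA during translation, stood at 7.27, 6.99, 8.31, 7.78 and 9.19 CPM with inhibitor and at 9.87, 14.9, 14.0, 20.1 and 15.6 CPM with vehicle. The groups did not overlap, the log2 fold change was -0.91 (SE 0.19), and leaving out each library in turn moved it between -1.03 and -0.781. Gm28035 (chr2:30240567-30282148) stood at 2.78, 4.95, 1.33, 2.18 and 2.14 CPM with inhibitor and at 0.408 CPM in vehicle replicate 1, and was listed at 0 in the other 4 vehicle libraries. It overlaps Lrrc8a, Phyhd1 and Gm28038 on the same strand, so how its reads were assigned is uncertain. Its adjusted p was 0.00269 with DESeq2, 0.0492 with limma-voom and 1 with edgeR.

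Nnat, a small membrane protein, ranged from 1.47 to 1.92 CPM with inhibitor and from 2.52 to 6.55 CPM with vehicle (log2 fold change -1.23, SE 0.29). Tnfsf13b, which encodes the B cell survival factor BAFF, ranged from 0.872 to 2.91 CPM with inhibitor, and was at 1.29 CPM in vehicle replicate 3 and listed at 0 in the other 4. H2-DMa, which loads peptides on MHC class II, stood at 10.99 CPM with inhibitor and 6.02 CPM with vehicle (0.87, SE 0.33). H2-DMa is on the interferon gamma list, where 22 of 27 tested members were lower by sign. It overlaps another gene model on the same strand, so how its reads were assigned is uncertain. Chac1, a glutathione-degrading enzyme of the unfolded protein response, ranged from 0.795 to 3.26 CPM and from 2.72 to 5.11 CPM (-1.02, SE 0.37).

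Among the most variable genes, some were listed at exactly 0 in part of the libraries of both groups. Counts of 0 in at least 1 library beside at least 100 in another were found for 237 genes, of which 195 were tested. Maz, a widely expressed transcription factor, was listed at 0 in 4 vehicle libraries and 1 inhibitor library and stood between 11.8 and 49.3 CPM in the other 5. Nars, a tRNA synthetase that all cells need, was listed at 0 in inhibitor replicates 1 and 2 and reached 113 CPM in vehicle replicate 4. Such zeros can be estimates that failed. Hp, Retn, Cfd and Cyp2e1, each at 0 in 1 to 3 inhibitor libraries, have this pattern too, and the doubt holds for their fold changes and calls. Without the genes of this pattern 0 genes were called, with 169 at an unadjusted p under 0.05.

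The inhibitor effect was then compared between these littermates and TNFΔARE mice, which carry a deletion of the Tnf AU-rich element on 1 allele (Tnf ΔARE/+) and develop intestinal inflammation. The fit held 21 libraries, with batch as a term, because 5 of the 6 inhibitor libraries of TNFΔARE mice came from batch 3 and 4 of their 5 vehicle libraries from batch 2. Of 14370 genes tested, 0 (0%) had effects that differed at an adjusted p under 0.05 by edgeR's quasi-likelihood test, with 230 at an unadjusted p under 0.05. DESeq2 called 11, and 3 genes were called in batch 2 alone, where the inhibitor group of TNFΔARE mice is 1 library that is assumed to vary like the others.

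Zfp36 was among the 5 genes with the smallest p for this difference. Its effect was 0.35 (SE 0.24) in littermates and -0.996 (SE 0.29) in TNFΔARE mice, where levels ranged from 8.94 to 24.1 CPM with inhibitor and from 14.8 to 36.6 CPM with vehicle. The difference was 1.35 (SE 0.38, 95% interval 0.56 to 2.13), with an adjusted p of 1 by edgeR. Without the batch term, which only the TNFΔARE libraries inform, the difference of Zfp36 was 0.976. Tnf was at 1.19 CPM with inhibitor and 1.10 CPM with vehicle in littermates, against 24.1 and 35.8 CPM in TNFΔARE mice, where the groups overlapped (13.2 to 31.4 and 15.6 to 55.6 CPM). With batch as a term its fitted effects were 0.08 (SE 0.49) in littermates and 0.077 (SE 0.51) in TNFΔARE mice, the latter opposite in sign to the difference of those means. The effects differed by 0.003 (SE 0.59, interval -1.22 to 1.23). For Mapkapk2 the difference was -0.17 (SE 0.17, interval -0.53 to 0.20). Hp had effects of -3.74 (SE 0.61) in littermates and 0.01 (SE 0.60) in TNFΔARE mice, where its level was 136 CPM with inhibitor and 153 CPM with vehicle. DESeq2 called this difference of Hp (adjusted p 0.0149), and without vehicle replicate 2 it was -2.99 against -3.75 in edgeR's fit. The other 3 genes with the smallest p were Ddx46, an RNA helicase of splicing (difference -1.10, SE 0.31), Plppr5 (-2.14, SE 0.61) and Abcd2, a peroxisomal fatty acid transporter (-2.69, SE 0.75). Over 11 adipose genes the median effect was -2.93 in littermates and -0.98 in TNFΔARE mice, so both were negative. Their median difference was -1.87, with 0 called. For Adipoq the effects were -3.88 (SE 1.26) and -1.91 (SE 2.09). In TNFΔARE mice Adipoq ranged from 0 to 66.2 CPM with inhibitor and from 0 to 25.1 CPM with vehicle. Its means there were 18.9 and 11.5 CPM, opposite in sign to the fitted effect.

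A second comparison set the littermates beside non-inflamed mice of the T cell transfer model, which lack Rag1 and received 200000 bulk T cells. These 11 libraries, 6 with inhibitor and 5 with vehicle, came from batches 1, 3 and 4, so the batch, the model and any difference in tissue cannot be told apart in their levels. Of 15565 genes tested in a fit of all 44 libraries, 0 (0%) had effects that differed at an adjusted p under 0.05 by edgeR, with 236 at an unadjusted p under 0.05. DESeq2 called 102 genes, of which 44 had the higher effect in littermates and 58 the lower. Of these 102, 45 were listed at 0 in at least 1 library and at 100 or more counts in another, and 5 were on the adipose list.

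All 5 genes with the smallest p had negative differences. They were Timp4, an inhibitor of matrix metalloproteinases (difference -2.72, SE 0.69), Lpl (-4.38, SE 1.14), Hp (-4.90, SE 1.29), Thrsp (-5.49, SE 1.45) and Fabp4 (-4.16, SE 1.12). DESeq2 called all 5, with adjusted p from 0.000861 (Hp) to 0.0409 (Timp4), and without vehicle replicate 2 edgeR's differences were -2.15, -3.01, -4.13, -3.53 and -3.15 in the same order. For Lpl the effect was -2.91 (SE 0.76) in littermates and 1.47 (SE 0.84) in transfer mice, where the level ranged from 8.53 to 216.8 CPM with inhibitor and from 9.70 to 45.7 CPM with vehicle. For Fabp4 the effects were -2.57 (SE 0.76) and 1.59 (SE 0.82), and for Adipoq -3.85 (SE 1.32) and 2.91 (SE 1.49). Over 12 tested adipose genes the median effect was -2.74 in littermates and 1.99 in transfer mice, and 0 of the 12 differences were called by edgeR. The highest inhibitor library of transfer mice stood at 342.9 CPM for Fabp4, against group means of 85.5 CPM with inhibitor and 26.5 CPM with vehicle. For Adipoq it stood at 95.5 CPM, against 21.6 and 5.25 CPM. No transfer library was left out in turn, so how far single libraries carry these positive effects was not tested. For Zfp36 the effects were 0.37 (SE 0.27) and -0.39 (SE 0.27), and for Mapkapk2 the difference was -0.02 (SE 0.15, 95% interval -0.32 to 0.28).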

How the data were processed

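Poly-A selected, strand-specific RNA sequencing libraries of mouse intestine were compared, 5 per group. Expected counts, given as whole numbers, are the main values the authors deposited. They also deposited normalized signal, where a separate factor for each gene and library multiplies the estimate. Salmon 0.14.1, DESeq2 (no version) and the builds mm10 and GRCm38 are listed per the submitters' processing notes. For the annotation release, nothing was given in the sources used here. Symbols, positions and UTRs came from GENCODE for GRCm38, which matched 29395 of 29720 gene identifiers.

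Genes were kept by filterByExpr and tested in R 4.3.3 with edgeR 4.0.16 (TMM scaling, robust quasi-likelihood F-test, two-sided, Benjamini-Hochberg adjustment, threshold 0.05). The fit of inhibitor against vehicle held the 10 libraries with no covariate, and differences between effects were interaction terms. The alternatives were DESeq2 1.42.0, voom of limma 3.58.1 (sample weights), RLE scaling, other filters, a replicate block, a sex term, other sample sets, a fold minimum of 1.5, each library left out, and limma on the deposited normalized signal plus 1. Alternatives chosen after the data were seen left out genes listed at 0 in some libraries, libraries without Y-linked transcripts, or vehicle replicates 2 and 4, or added the adipose level as a covariate. In the comparison with transfer mice only the littermate libraries were left out in turn. The scripts were tested on simulated data. No 2 libraries of a group were identical (lowest chi-square per gene 22).

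The comparison and the 45 gene lists (852 entries) were chosen with earlier results of these data known. Named genes were 14 set genes, the 10 genes per direction with the smallest p and a mean of at least 1 CPM, the 2 with the smallest p of each list, the 10 of largest variance with a mean of at least 5 CPM, and 5 per difference between effects; further list members were chosen after their values were seen. These choices passed over pseudogenes, receptor segments and gene models without a name. Gm28035 is named because other tests called it, and Trf and Rbp4 because their groups did not overlap.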

Additional observations from a re-analysis of the deposited data

Results flagged for a closer look

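Levels of the 70 tested genes named in the report, 45 list sums and the library totals were checked in each group of 5. The check looked for a library far from the other 4, in 232 tests, of which 34 were positive. Chance gives about 1 in 20 only for normally distributed values of genes not chosen from these libraries. The check used CPM without logs, and many genes were named for their values here, so the 34 cannot be set against that rate. Of the 34 positive tests, 18 were the highest or lowest value of vehicle replicate 2. Among genes of the adipose list it stood at 110.7 CPM for Adipoq (next highest 21.01), 310.4 CPM for Fabp4 (60.6), 517 CPM for Cfd (44.8), 588 CPM for Car3 (66.95), 218 CPM for Lpl (28.9), 74.2 CPM for Retn (5.31), 72.9 CPM for Plin4 (21.2) and 5.51 CPM for Lep (1.64), and the summed list was 2056 CPM (298). Outside the list it stood at 29.2 CPM for Hp (8.50), 122 CPM for Thrsp (10.9), 10.1 CPM for Adrb3 (3.51), 334 CPM for Trf (48.7), 128 CPM for Cyp2e1 (26.04), 12.4 CPM for Rbp4 (2.99), 12.9 CPM for Abcd2 (2.93) and 3.91 CPM for Timp4 (1.2). It was lowest for the summed pancreas list, at 63.8 CPM (99.0). Genes that share a tissue are not independent tests.

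Vehicle replicate 4 was highest for the summed type I interferon list at 1253 CPM (next 663), the antimicrobial and interleukin-22 list at 51940 CPM (17830), the bile acid list at 8698 CPM (6275), Usp18 at 37.97 CPM (7.43) and Fabp6 at 6115 CPM (4292). Vehicle replicate 1 was lowest for the immediate early genes at 1419 CPM (1903) and for Clca1 at 1514 CPM (1994), and was the one vehicle library with Gm28035, at 0.408 CPM. Likewise Tnfsf13b was found in vehicle replicate 3 alone, at 1.29 CPM, and Maz in vehicle replicate 5 alone, at 11.8 CPM. Among inhibitor libraries, replicate 3 was highest for Cyp2c66 at 29.6 CPM (9.22) and Per3 at 11.3 CPM (5.34), and was the one inhibitor library with Plin1, at 0.884 CPM. Inhibitor replicate 5 was highest for Fabp4 at 34.3 CPM (16.2) and lowest for the summed Y-linked genes at 3.09 CPM (124), and replicate 1 was lowest for Fabp6 at 2173 CPM (3881).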

How the results depend on the processing

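For inhibitor against vehicle, 0 genes were called in each alternative except DESeq2 (3) and limma-voom (1), and 0 without any single library. Counts at an unadjusted p under 0.05 moved more: 173 as reported, 121 to 416 with 1 library left out (416 without vehicle replicate 4, 268 without vehicle replicate 5), 289 with DESeq2, 371 with limma-voom, 427 with no filter, 373 with all TNF groups, 329 with their batch 2 libraries and 580 with the adipose level as a covariate, which by itself separates the groups. Effects that differed from TNFΔARE mice numbered 11 with DESeq2, 3 in batch 2 alone (Fam133b, Pam16 and Zfp131) and 0 to 1 with 1 library left out (Tnfsf13b without vehicle replicate 3 of the littermates, Zfp131 without vehicle replicate 5 of TNFΔARE mice); without a batch term 1016 had an unadjusted p under 0.05, against 230, and 736 without vehicle replicate 4. Effects that differed from transfer mice numbered 102 with DESeq2 and 0 otherwise, where only littermate libraries, and no transfer library, were left out in turn. In 2 of 5 pairs of libraries with one number the correlation exceeded 0.1, so the numbers were not taken as a pairing; with a replicate block the 3 comparisons called 0, 0 and 0 genes, with 149, 150 and 247 at an unadjusted p under 0.05. Of 144 genes followed through all alternatives, 50 changed sign in at least 1 while called in neither fit, and 0 called values reversed. Low counts limit Tnf, Il6, Cxcl1 and Cxcl2.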
